A study of Mus musculus with 23 samples.

Results

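The collagen genes of the mouse were followed in the circumvallate papilla, a trench-ringed taste organ of the rear tongue, across 3 feeding groups. A gene was a member when its array symbol had the form of a collagen chain (Col, a type number, the letter a and a chain number), and each gene was represented by its brightest probe over the 23 arrays. This gave 43 collagen genes among the 34797 gene symbols on the array. Of these, 11 were fibrillar, 6 were type IV chains of the basement membrane and 26 were of other types. The groups were DIO-R (8 samples), DIO (8 samples) and Lean (7 samples), all male mice of the strain written C57Bl6j in the labels. The chow of Lean mice held 3% fat by weight, and the fat of the DIO mice's obesogenic feed was mainly saturated. The labels do not spell out DIO-R. They describe a calorie restriction to 60% of the ad libitum energy intake, and DIO-R is read here as obese mice under that restriction. Ages and the length of each diet are not stated, and neither is whether each sample came from a separate animal, so the p-values measure the spread between these samples, which may in part be technical.

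Collagens are secreted proteins whose chains wind around each other into a helix and then assemble outside the cell. Fibrillar collagens such as types I, III and V form the cables of the connective tissue, type IV forms the sheet-like network of basement membranes, type VI forms beaded filaments, and the fibril-associated types (FACITs) decorate the surface of fibrils. In the tongue, fibroblasts of the connective tissue core under the papilla are the main source of the fibrillar types, while keratinocytes of the epithelium make types VII and XVII, which anchor the epithelium to its basement membrane.

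RNA was hybridised to 1-colour Agilent arrays. A log2 level below is the log2 processed signal of a probe minus the 75th percentile of its array, so that 0 marks the 75th percentile. No spot was saturated, between 66.9% and 78.4% of the probes were well above background on an array, and any 2 arrays correlated at 0.960 to 0.991 over all genes. For the tissue label, 10 of 10 taste cell markers passed the filter on dim probes. So did 28224 of the 34797 genes, with 16 of 16 fibroblast, 10 of 10 skeletal muscle and 8 of 8 adipocyte markers among them, so that passing does not set the tissue apart. The 23 arrays lay on 3 slides that each held all 3 groups, and 0 of the 38 collagen genes tested differed between slides in limma's F test with adjustment, against 0.716% of all genes. As in any whole-tissue sample, fewer cells of a type and less RNA per cell cannot be told apart.

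Testing required a probe that the scanner software marked well above background on 7 or more arrays, which 38 of the 43 collagen genes met. The 5 that did not were Col10a1, which marks hypertrophic cartilage and was well above background on 0 arrays, Col9a3 of cartilage (1 array), Col4a3 and Col6a4 (2 arrays each) and Col6a6 (3 arrays). Col6a5, with 10 arrays, was the dimmest kept. All 11 fibrillar genes, 5 of 6 type IV genes and 22 of 26 other collagen genes were kept.

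The arrays did not carry collagen signal evenly. DIO-R 6, DIO 3 and Lean 9 each held the lowest value of their group for 24 of the 38 genes, and Lean 10 for another 7. On the mean deviation of the 11 fibrillar genes, DIO-R 6 lay at −0.64, DIO 3 at −0.56, Lean 9 at −0.79 and Lean 10 at −0.62, whereas the medians were 0.08 in DIO-R, 0.33 in DIO and 0.05 in Lean. At the top, DIO-R 2 reached 0.42, DIO 2 reached 0.57 and Lean 7 reached 0.12. The fibroblast markers moved with these arrays, at mean deviations of −0.58 in DIO-R 6, −0.73 in DIO 3, −0.86 in Lean 9 and −0.41 in Lean 10. Their part in the collagen values was not tested. The fibrillar medians and the counts of higher or lower collagen genes below are given with and without these 4 arrays. The medians of the other classes are not given without them. These 4 arrays were picked after seeing the data, from the collagen values themselves.

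**Figure D1:**
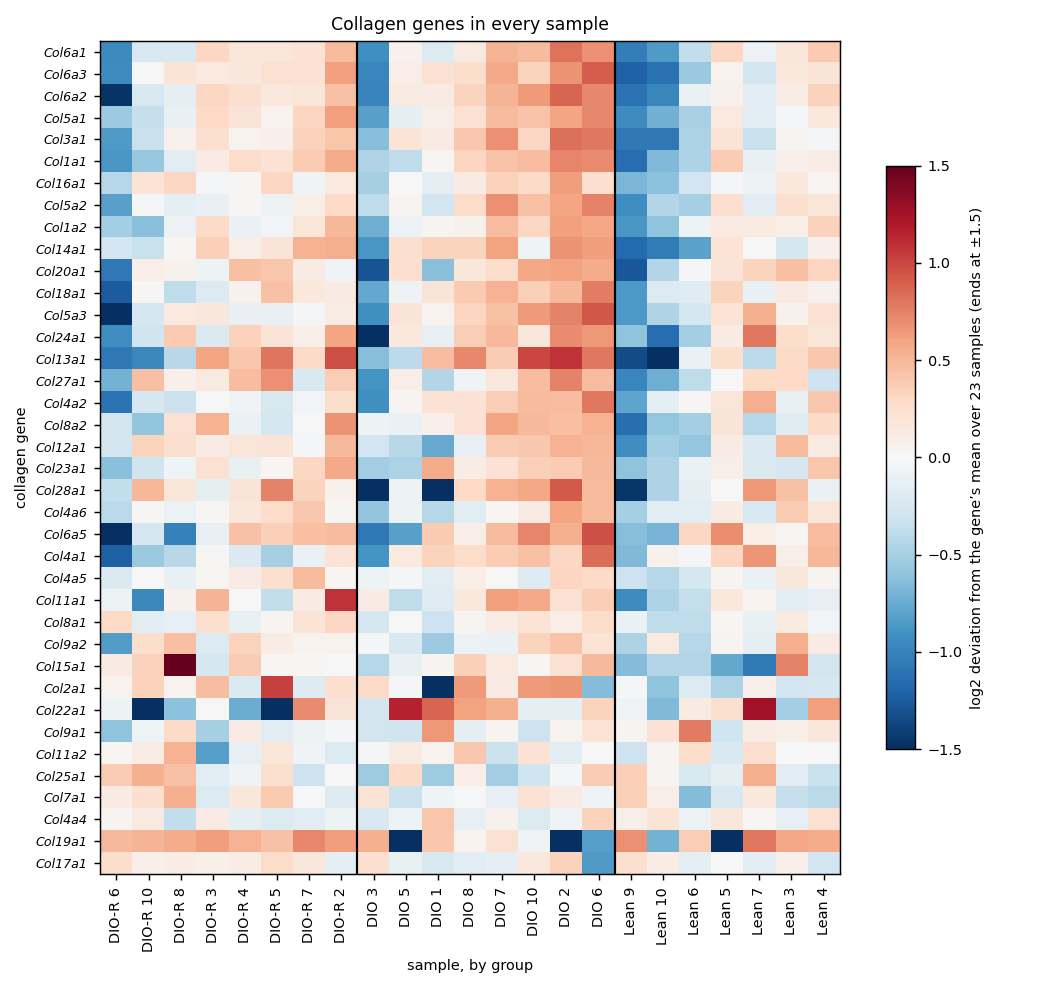
Each cell gives the log2 deviation of 1 collagen gene (38 rows) from its mean over the 23 samples, in DIO-R, DIO and Lean samples from left to right, ordered within a group by their mean collagen deviation; rows are ordered by their correlation with the mean of the fibrillar genes. DIO-R 6, DIO 3, Lean 9 and Lean 10 are low across most rows, and the bottom rows, among them Col17a1, Col7a1 and Col4a4, do not follow this pattern.

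Collagen genes varied together from sample to sample. The 55 pairs of fibrillar genes had a median Pearson correlation of 0.72 across the 23 samples, the 10 pairs of type IV genes 0.37, and all 703 pairs 0.43 with a range of −0.67 to 0.97. These are descriptions, since the points share arrays and 1 scaling. Set against the mean of the fibrillar genes (leaving out the gene itself), the closest genes were the type VI chains Col6a1 (0.96), Col6a3 (0.94) and Col6a2 (0.93), followed by Col5a1 and Col3a1 (0.92 each) and Col1a1 (0.91). At the other end stood Col17a1 (−0.34), the hemidesmosome collagen of basal keratinocytes, Col19a1 (−0.24), Col4a4 (−0.14) and Col7a1 (−0.13), the anchoring fibril collagen. The cartilage-type fibrillar gene Col2a1 (0.16) and the type XI chain Col11a2 (−0.07) also did not follow the mean, whereas Col11a1 did in part (0.61).

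Collagen genes were compared in 12 pairs across the 23 samples, 9 of chains of the same type and 3 of chains of different types, with 100000 permutations per two-sided test and Benjamini-Hochberg adjustment over the 12. Col4a1 and Col4a2, which lie head to head in the genome and supply the type IV network of most basement membranes, had Pearson's r = 0.96 and Spearman's rho = 0.95 (permutation p = 1e-05 for both, the smallest the permutations can give; adjusted 2e-05 and 1.71e-05). Without the 2 samples farthest from the median, DIO-R 6 and DIO 3, r was 0.94. The values within the 3 slides were 0.99, 0.96 and 0.89.

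The type I chains Col1a1 and Col1a2 had r = 0.90 and rho = 0.87 (r = 0.86 without Lean 9 and DIO-R 6), and the type V chains Col5a1 and Col5a2 had r = 0.88 and rho = 0.87 (r = 0.85 without Lean 9 and DIO 3), at the same permutation p of 1e-05. Among the type VI chains, Col6a1 correlated with Col6a2 at r = 0.96 (rho = 0.93) and with Col6a3 at r = 0.94 (rho = 0.83), and both kept r of at least 0.91 without the 2 farthest samples. Col4a5 and Col4a6, the neighbouring X-linked type IV chains, had r = 0.78 and rho = 0.82 (permutation p = 2e-05 and 1e-05). This rests on the chosen Col4a6 probe, with which a second probe of the gene correlated at 0.18. The type VIII chains Col8a1 and Col8a2 were more loosely tied, with r = 0.57 and rho = 0.57 (adjusted permutation p = 0.00548 and 0.00685; r = 0.47 without Lean 6 and Lean 10), and within the slides r was 0.32, 0.84 and 0.23.

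Not every pair followed this. Col11a1 and Col11a2, both chains of type XI, had r = −0.26 and rho = −0.34 (adjusted permutation p = 0.258 and 0.14), and Col9a1 and Col9a2 of type IX had r = 0.06 and rho = 0.21 (adjusted 0.79 and 0.354), with slide values from −0.65 to 0.78. Col11a2 was dim, with medians of −4.01 in DIO-R, −3.96 in DIO and −3.99 in Lean. A second Col9a1 probe correlated with the chosen probe at −0.22. The part of dim signal and probe choice in these pairs was not tested. Across types, Col1a1 followed Col3a1 at r = 0.92 and rho = 0.91. With Col4a1 it had r = 0.67 and rho = 0.60 (adjusted permutation p = 0.00099 and 0.00439), and r = 0.52 without Lean 9 and DIO-R 6. The permutations ignored the groups in every pair. With each group's mean removed, r was 0.81 for Col1a1 with Col4a1 and 0.92 for Col1a1 with Col3a1. Col1a1 and Col17a1 had r = −0.33 and rho = −0.18 (adjusted permutation p = 0.146 and 0.406).

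**Figure D2:**
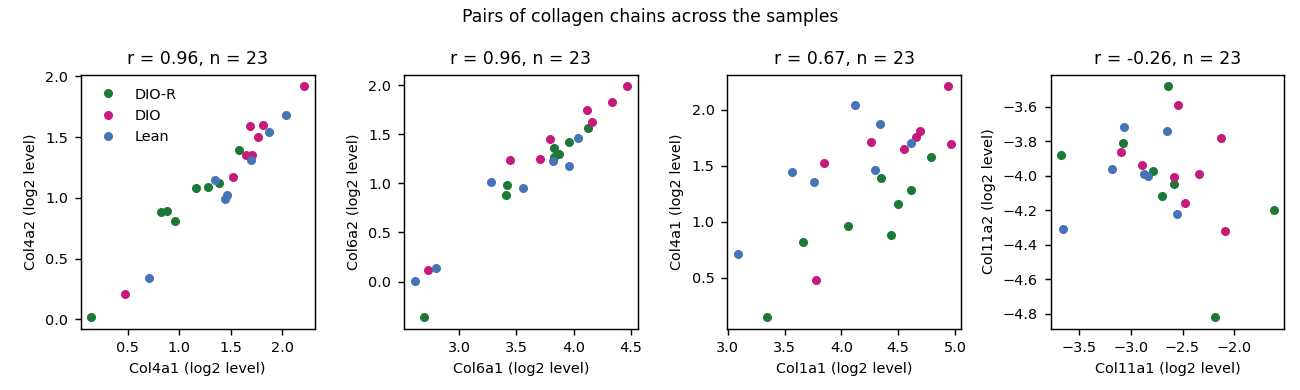
Log2 levels of 4 pairs of collagen genes in the 23 samples, each point 1 sample coloured as DIO-R, DIO or Lean, with Pearson's r above each panel. Col4a1 with Col4a2 and Col6a1 with Col6a2 lie close to a line (r = 0.96 each), Col1a1 with Col4a1 more loosely (r = 0.67), and Col11a1 with Col11a2 not at all (r = −0.26).

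Beside this shared variation, the DNA just before their start sites was read from RefSeq (GRCm38.p6), which held 38 promoters of 35 collagen genes. The 100 bases before the start are shown for Col3a1 (chr1:45311438-45311537, plus strand), Col1a2 (chr6:4505518-4505617, plus strand), Col5a1 (chr2:27886325-27886424, plus strand) and Col6a3 (chr1:90843972-90844071, minus strand), 4 genes that tracked the fibrillar mean closely. Capitals mark a match to 1 of 3 motifs searched on both strands. These were the CCAAT box, the TATA box spelled TATAAA, and the GC box spelled GGGCGG, and the matches did not overlap.
Col3a1: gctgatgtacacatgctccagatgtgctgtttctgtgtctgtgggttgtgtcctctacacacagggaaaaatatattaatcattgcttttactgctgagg
Col1a2: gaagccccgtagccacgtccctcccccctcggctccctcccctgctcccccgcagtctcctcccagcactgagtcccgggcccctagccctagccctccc
Col5a1: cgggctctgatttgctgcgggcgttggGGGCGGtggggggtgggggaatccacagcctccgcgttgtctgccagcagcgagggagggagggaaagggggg
Col6a3: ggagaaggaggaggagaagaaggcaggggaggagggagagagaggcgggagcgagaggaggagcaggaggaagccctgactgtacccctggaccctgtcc
Only Col5a1 of the 4 held a match, a GGGCGG beginning at position −73 from the start. Over all 38 collagen promoters, 18 held GGGCGG (47.4%, against 24.7% of the 32851 promoters in the table), 4 held CCAAT (10.5% against 18.9%) and 2 held TATAAA (5.26% against 5.56%). Among the 8 fibrillar promoters, GGGCGG was found in those of Col5a1, Col5a3, Col11a1, Col11a2 and Col27a1. A match is a run of letters and not a binding site.

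The first comparison, DIO with Lean, asks how the obesogenic diet went with the papilla's collagen transcripts. Of the 38 collagen genes, 33 had a log2 difference above 0, which was the case for 41.1% of all 28224 genes tested. Their median difference was 0.25, against −0.04 over all genes. No collagen gene passed limma's test at an adjusted p under 0.05, a threshold that 0.00354% of all genes passed, and 9 of the 38 had an unadjusted p under 0.05 (8.95% of all genes), all 9 higher in DIO. They were Col3a1, Col5a1 and Col5a2 of the fibrillar class and Col6a3, Col8a2, Col13a1, Col14a1, Col15a1 and Col16a1 of the other types.

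Fibrillar genes were higher in DIO for 11 of 11, with a median difference of 0.38 and a range of 0.04 to 0.73. All the other types together were higher for 18 of 22 (median 0.23), and the type VI genes among them for 4 of 4 (median 0.48). Type IV genes were higher for 4 of 5, with a median of 0.09. Within the 3 slides the fibrillar median was 0.27, 0.57 and 0.30, and without DIO-R 6, DIO 3, Lean 9 and Lean 10 it was 0.28, with 10 of 11 fibrillar genes and 31 of all 38 collagen genes higher. Without Lean 9 alone, 27 of 38 collagen genes were higher. The count at an unadjusted p under 0.05 depended on single arrays. It was 3 without Lean 9 or without Lean 10, 4 without DIO 2, DIO 6, DIO 7 or DIO 10, 5 without Lean 6 and 15 without DIO 3. Without DIO-R 6, DIO 3, Lean 9 and Lean 10 together the count was 9, the same as over all samples. The share of all genes at that threshold was not counted without these arrays.

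**Figure D3:**
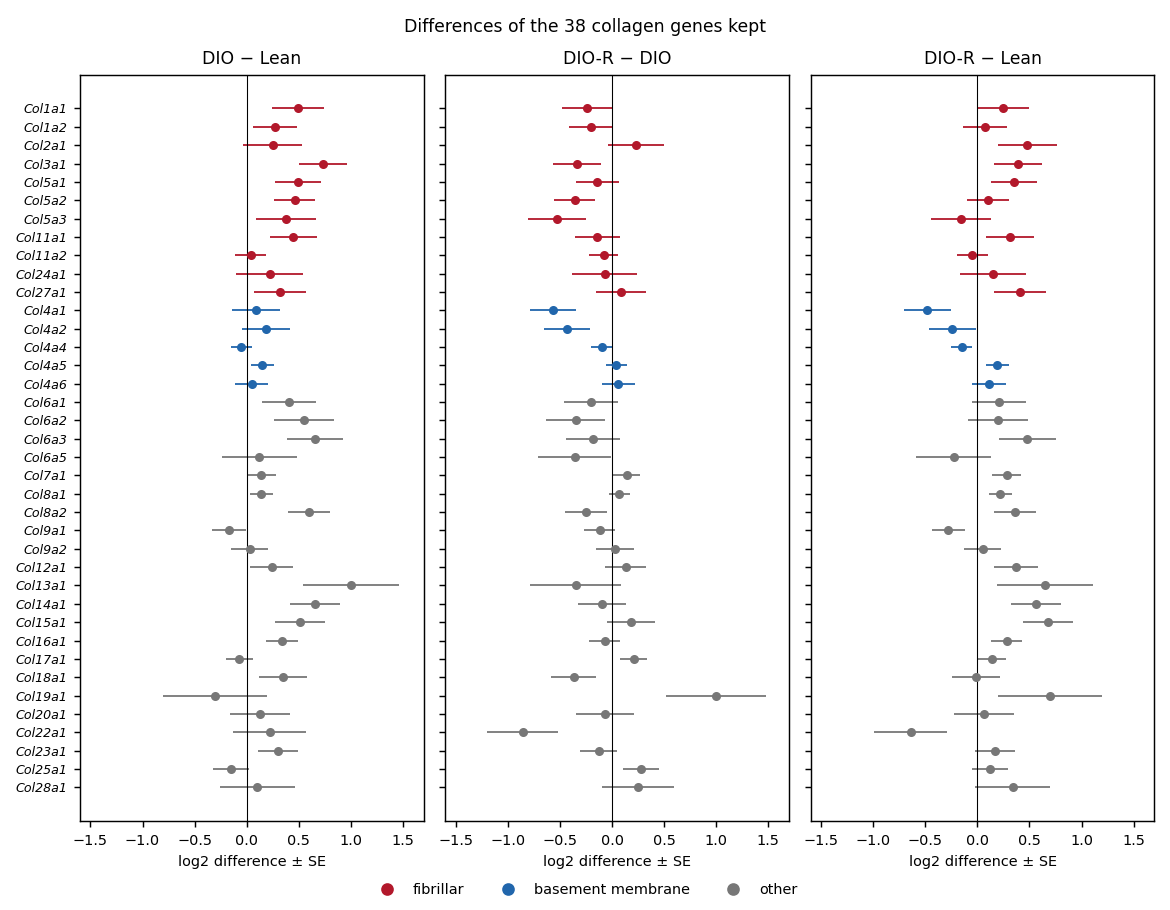
Log2 differences with standard errors of the 38 collagen genes kept, for DIO minus Lean, DIO-R minus DIO and DIO-R minus Lean, with fibrillar genes in red, type IV genes of the basement membrane in blue and the other types in grey. The fibrillar points lie right of 0 in DIO minus Lean (11 of 11), and mostly left of 0 in DIO-R minus DIO (9 of 11), where Col4a1 and Col4a2 are also left of 0.

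Col3a1 encodes type III collagen, which runs with type I in distensible tissues. Its log2 level spanned 3.35 to 4.62 in DIO-R samples (median 4.27), 3.56 to 5.02 in DIO samples (median 4.56) and 3.13 to 4.41 in Lean samples (median 3.87). DIO 2 was the highest of all, 7 of 8 DIO samples lay above the Lean mean, and the groups overlapped. The DIO minus Lean difference was 0.73 ± 0.23 (SE; 95% interval 0.24 to 1.21; adjusted p = 0.343), a 1.65-fold higher level, and it stood at 0.81, 0.93 and 0.49 within the 3 slides and 0.59 without the 4 low arrays. The probe lies at chr1:45405589-45405648 in mm9.

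The type I chains are the main protein of most connective tissue. Col1a1 spanned 3.35 to 4.79 in DIO-R (median 4.39), 3.78 to 4.96 in DIO (median 4.60) and 3.09 to 4.61 in Lean (median 4.12). The groups overlapped widely, with DIO-R 6, DIO 3 and Lean 9 lowest, and DIO minus Lean was 0.49 ± 0.25 (interval −0.02 to 1.00; adjusted p = 0.578). For Col1a2 the levels were 5.23 to 6.36 in DIO-R (median 5.79), 5.13 to 6.48 in DIO (median 6.05) and 4.99 to 6.21 in Lean (median 5.96), with a difference of 0.27 ± 0.21 (interval −0.17 to 0.71). For Col1a2, 7 of 8 DIO samples lay above the Lean mean, and the intervals of both chains reach below 0.

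Type V collagen sits inside type I fibrils and sets their width. Col5a1 lay between 0.69 and 1.85 in DIO-R (median 1.36), 0.42 and 1.96 in DIO (median 1.56) and 0.29 and 1.39 in Lean (median 1.06), and DIO minus Lean was 0.49 ± 0.22 (adjusted p = 0.52). Col5a2 lay between −2.00 and −0.89 in DIO-R (median −1.23), −1.57 and −0.44 in DIO (median −0.82) and −2.12 and −0.93 in Lean (median −1.35), with a difference of 0.46 ± 0.20 (adjusted p = 0.515). DIO 3 and Lean 9 were the lowest of their groups for both genes, and the groups overlapped. The remaining fibrillar genes named were Col11a1, at 0.45 ± 0.23 (adjusted p = 0.588), and Col2a1 of cartilage, at 0.25 ± 0.28 and well above background on 7 of 8 DIO arrays.

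**Figure D4:**
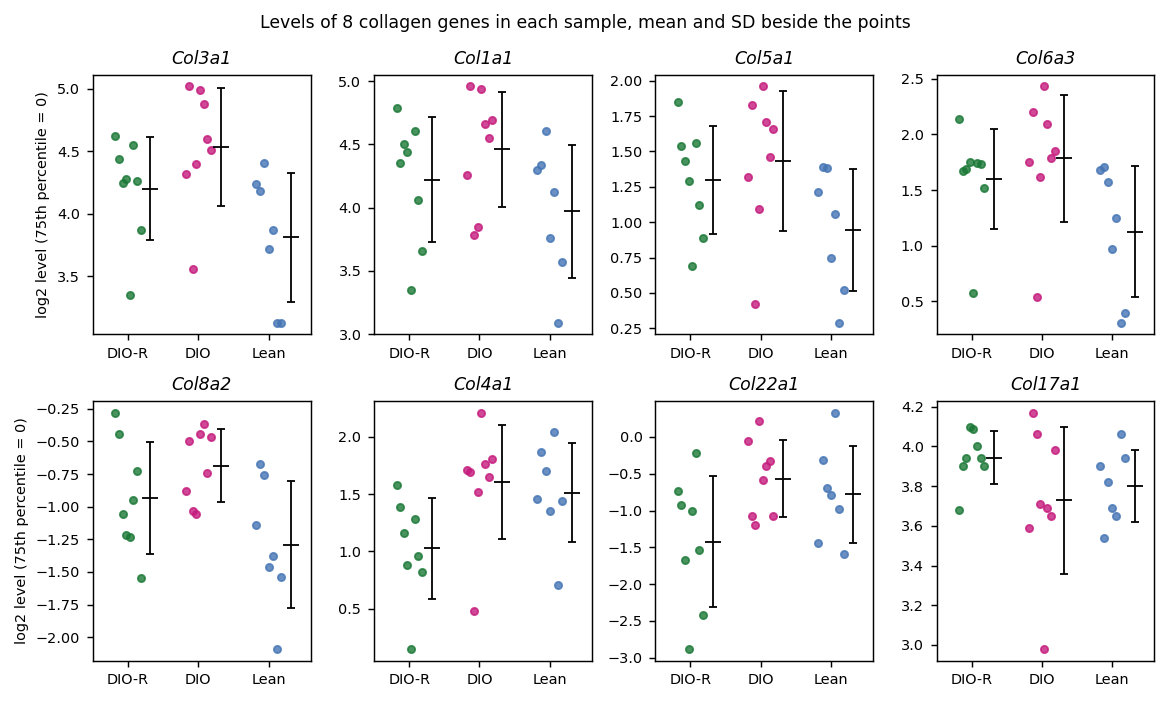
Log2 levels of 8 collagen genes (75th percentile of the array = 0) in every DIO-R, DIO and Lean sample, 1 point each, with the group mean and SD to the right of the points; the vertical axes differ between panels. The groups overlap in every panel, the DIO-R points of Col4a1 lie below the DIO mean in 8 of 8 samples, and those of Col22a1 in 7 of 8.

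Type VI filaments link cells to the fibrils around them. Col6a3 reached 0.58 to 2.14 in DIO-R (median 1.71), 0.54 to 2.43 in DIO (median 1.82) and 0.31 to 1.71 in Lean (median 1.25). DIO-R 3, DIO-R 4, DIO-R 6, DIO-R 10, DIO 3 and DIO 5 lay within the Lean range, 7 of 8 DIO samples were above the Lean mean, and DIO minus Lean was 0.66 ± 0.27 (interval 0.10 to 1.21; adjusted p = 0.467). Its partners Col6a1 and Col6a2 differed by 0.41 ± 0.26 and 0.55 ± 0.29, with intervals from below 0 to 0.96 and 1.16.

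Col8a2, a chain of the network-forming type VIII, had the second smallest p in DIO minus Lean. Its levels were −1.55 to −0.28 in DIO-R (median −1.0), −1.06 to −0.37 in DIO (median −0.62) and −2.09 to −0.67 in Lean (median −1.38). All 8 DIO samples lay above the Lean mean, though Lean 4 and Lean 5 reached into the DIO range, and the difference was 0.60 ± 0.20 (interval 0.18 to 1.02; adjusted p = 0.365). A second Col8a2 probe, well above background on 22 arrays, gave −0.19 for the same comparison and correlated with the first at 0.11, so that the direction depended on the probe.

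Col14a1, a FACIT that binds to the surface of fibrils, spanned 1.5 to 2.38 in DIO-R (median 1.97), 0.96 to 2.50 in DIO (median 2.17) and 0.67 to 2.04 in Lean (median 1.57). DIO minus Lean was 0.66 ± 0.24 (interval 0.16 to 1.15; adjusted p = 0.402), and a second probe gave 0.43. Within the slides the chosen probe gave 0.75, 0.83 and 0.52. Further FACITs differed by 0.34 ± 0.15 (Col16a1, adjusted p = 0.518) and 0.24 ± 0.21 (Col12a1, of tissues under load, interval −0.19 to 0.68). Col13a1, a membrane-spanning collagen of the neuromuscular junction, had the widest difference, 1.00 ± 0.46 (adjusted p = 0.527), but its probe was well above background on 6 of 8 DIO-R, 7 of 8 DIO and 5 of 7 Lean arrays.

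The median difference was 0.09 over the 5 type IV genes and 0.25 over Col7a1, Col15a1, Col17a1 and Col18a1, which also belong to basement membrane zones. Col4a1 and Col4a2 differed between DIO and Lean by 0.09 ± 0.23 (interval −0.38 to 0.57) and 0.19 ± 0.23 (interval −0.28 to 0.66). Col7a1 differed by 0.14 ± 0.14 (interval −0.15 to 0.43), Col17a1 by −0.07 ± 0.13 (interval −0.34 to 0.20) and Col18a1, the source of endostatin, by 0.35 ± 0.23 (interval −0.13 to 0.83). Col15a1, a relative of Col18a1 found around vessels and muscle, differed by 0.51 ± 0.24 (interval 0.01 to 1.00; adjusted p = 0.543), and 2 further probes gave 0.62 and 0.49. With another background correction (normexp) the Col15a1 difference was 0.19. The cartilage FACIT Col9a1 differed by −0.17 ± 0.16, while its second probe gave 0.50.

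Markers of other cells were read beside these values. Of 16 fibroblast markers, 14 were higher in DIO than in Lean (median 0.18, 0 past the adjusted threshold). Their levels, summed on a linear scale on which the 75th percentile is 1, ran from 271 to 475 in DIO-R, 234 to 521 in DIO and 225 to 470 in Lean. Among these markers Lum, a proteoglycan that organises collagen fibrils, had the smallest p, at 0.96 ± 0.23 (adjusted p = 0.163). Differentiated keratinocyte markers were lower in DIO for 9 of 9 kept (median −0.44, 0 past the threshold; sums 836 to 1520 in DIO-R, 480 to 1500 in DIO and 840 to 1670 in Lean). Erythrocyte markers were higher for 6 of 6 kept (median 1.13, 0 past the threshold, 5 at an unadjusted p under 0.05; sums 92.9 to 314 in DIO-R, 157 to 570 in DIO and 59.0 to 260 in Lean). Flg2 was the keratinocyte marker not kept. Of 10 macrophage markers 8 were higher (2 at an unadjusted p under 0.05), and Aif1 alone passed the adjusted threshold. Aif1 stood at 1.30 ± 0.21 in DIO against 0.35 ± 0.27 in Lean (SD, with a difference of 0.95 ± 0.13 SE and an adjusted p of 0.00775). The part of these cells in the collagen values was not tested.

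The enzymes and chaperones that make collagen were read as a list of 20 genes, of which 10 were higher and 10 lower in DIO than in Lean (median 0.00, 0 past the adjusted threshold, 4 at an unadjusted p under 0.05, all higher). Serpinh1 stood at the head of them. It encodes HSP47, the chaperone that holds the collagen helix during folding. Its levels were 2.45 to 3.19 in DIO-R (median 2.94), 2.89 to 3.46 in DIO (median 3.17) and 2.20 to 2.82 in Lean (median 2.69). The lowest DIO sample lay above the highest Lean sample, and the difference was 0.61 ± 0.13 (adjusted p = 0.11). Serpinh1 was named for the smallest p of its list, and the share of all genes separated in this way was not counted.

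Of 12 genes for processing and cross-linking that were kept (Tll2 was not), 9 were higher in DIO (median 0.08, 0 past the threshold, 1 at an unadjusted p under 0.05). That 1 was Pcolce, which speeds the trimming of the fibrillar procollagens, at 0.63 ± 0.20 (adjusted p = 0.334). Of 14 genes for breakdown and its inhibitors (Mmp8 and Mmp16 were not kept), 11 were higher (median 0.14, 0 past the threshold, 4 at an unadjusted p under 0.05, all higher). Mmp3, a matrix protease, differed by 0.88 ± 0.27 (adjusted p = 0.317), and Ctsk, a lysosomal protease that cuts collagen, by 0.67 ± 0.22 (adjusted p = 0.362). Pepd, which splits the proline-ended dipeptides left over from collagen, differed by 0.12 ± 0.06.

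Collagen receptors split evenly, 4 higher and 4 lower of 8 kept (Gp6 was not), with Ddr2, a receptor kinase for fibrillar collagen, at 0.40 ± 0.18 (adjusted p = 0.525). Basement membrane partners were higher for 12 of 16 (median 0.08), with none at an unadjusted p under 0.05 or past the adjusted threshold. In the TGF-beta pathway, which drives collagen transcription, 10 of 17 genes were higher (median 0.06, 0 past the threshold, 4 at an unadjusted p under 0.05, 3 of them higher). Its target Ctgf was lower, at −0.36 ± 0.12 (adjusted p = 0.362).

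The second comparison, DIO-R with DIO, bears on calorie restriction. Collagen genes were lower in DIO-R for 25 of 38, against 48.4% of all genes, with a median difference of −0.11, against 0.01 over all genes. Again 0 of 38 passed limma's adjusted threshold, which 0.0602% of all genes passed, and 3 of 38 had an unadjusted p under 0.05 (9.73% of all genes). These were Col4a1 and Col22a1, lower in DIO-R, and Col19a1, higher. The share of collagen genes at that unadjusted threshold was below the share of all genes.

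By class, 9 of 11 fibrillar genes were lower in DIO-R (median −0.14), 3 of 5 type IV genes (median −0.10) and 13 of 22 of all the other types (median −0.08). Type VI genes, counted among the other types, were lower for 4 of 4 (median −0.28). Within the slides the fibrillar median was −0.35, −0.22 and −0.26, and without the 4 low arrays it was −0.19, with 25 of 38 collagen genes lower and 9 at an unadjusted p under 0.05. Over all collagen genes the slide medians were −0.30, 0.01 and −0.13. Single arrays bore on the size. Without DIO 3 the median was −0.24, 27 of 38 genes were lower and 9 had an unadjusted p under 0.05. Without DIO-R 6 the median was −0.05. The unadjusted count was 1 without DIO-R 5. For none of these settings was the share of all genes at that threshold counted.

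Col4a1 encodes a main chain of the type IV network. Its levels were 0.15 to 1.58 in DIO-R (median 1.06), 0.48 to 2.21 in DIO (median 1.7) and 0.71 to 2.04 in Lean (median 1.46). All 8 DIO-R samples lay below the DIO mean, but DIO 3 was lower than 7 of them, so that the groups overlapped. DIO-R minus DIO was −0.57 ± 0.22 (interval −1.03 to −0.11; adjusted p = 0.48), and −0.89, −0.54 and −0.39 within the slides. Without the 4 low arrays it was −0.61 (adjusted p = 0.228).

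Col4a2 followed its partner. It spanned 0.02 to 1.39 in DIO-R (median 0.99), 0.21 to 1.92 in DIO (median 1.43) and 0.34 to 1.68 in Lean (median 1.15). DIO-R minus DIO was −0.43 ± 0.22 (interval −0.88 to 0.03; adjusted p = 0.528). By their chosen probes the other type IV chains lay near 0, from −0.10 ± 0.10 for Col4a4 to 0.06 ± 0.16 for Col4a6. A second Col4a6 probe, well above background on all 23 arrays, gave −0.30 and correlated with the chosen probe at 0.18. Basement membrane partners of type IV were higher in DIO-R for 9 of 16 (median 0.03, 0 past the threshold, 2 at an unadjusted p under 0.05, both higher). Lama1, a laminin chain, differed by 0.48 ± 0.26.

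Vessels carry much type IV collagen, and vessel markers were lower in DIO-R too. Of 8 endothelial markers, 8 were lower in DIO-R (median −0.20; sums 13.4 to 20.6 in DIO-R, 12.8 to 22.6 in DIO and 12.6 to 22.4 in Lean), the nearest to the threshold being Tek at −0.34 ± 0.18. All 8 smooth muscle and pericyte markers were lower too (median −0.21; sums 18.8 to 46.9 in DIO-R, 22.5 to 78.2 in DIO and 28.6 to 58.3 in Lean), with Rgs5 at −0.43 ± 0.25. In each list 0 genes passed the adjusted threshold and 0 had an unadjusted p under 0.05. Fibroblast markers were lower for 12 of 16 (median −0.18, 0 at either threshold), with Prrx1 at −0.40 ± 0.20. Erythrocyte markers were lower for 6 of 6 kept (median −1.05, 6 at an unadjusted p under 0.05) and macrophage markers for 9 of 10 (median −0.31, 3 at an unadjusted p under 0.05), with 0 past the adjusted threshold. Adipocyte markers were lower for 7 of 8 (median −0.75, 4 at an unadjusted p under 0.05, of which 3 were lower and Pparg, at 0.26 ± 0.06 with an adjusted p of 0.197, was higher). Lingual gland markers were lower for 9 of 9 kept (median −0.37, 0 at an unadjusted p under 0.05), and in both lists 0 genes passed the adjusted threshold. The part of these cells in the collagen values was not tested.

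Col22a1 encodes a FACIT of the junction between muscle and tendon. Its levels were −2.88 to −0.22 in DIO-R (median −1.27), −1.20 to 0.22 in DIO (median −0.49) and −1.59 to 0.33 in Lean (median −0.79). DIO-R 5 was the lowest and the groups overlapped, with 7 of 8 DIO-R samples below the DIO mean. DIO-R minus DIO was −0.86 ± 0.34 (interval −1.56 to −0.15; adjusted p = 0.48), and −0.88, −1.37 and −0.13 within the slides. A second probe, well above background on all 23 arrays, gave −0.31.

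Skeletal muscle markers were lower in DIO-R than in DIO for 10 of 10 (median −0.60, 0 past the adjusted threshold, 2 at an unadjusted p under 0.05). Their summed level ran from 221 to 1280 in DIO-R, 628 to 1580 in DIO and 444 to 1900 in Lean. Actn3, of fast muscle fibres, differed by −1.09 ± 0.42 (adjusted p = 0.48). DIO-R 5 was lowest in these markers as it was in Col22a1, and the part of muscle in the Col22a1 values was not tested.

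Col19a1, a FACIT known from developing muscle of the oesophagus, was the 1 collagen gene higher in DIO-R at an unadjusted p under 0.05. It was well above background on 8 of 8 DIO-R, 6 of 8 DIO and 6 of 7 Lean arrays, and spanned −3.65 to −3.37 in DIO-R (median −3.56), −6.19 to −3.56 in DIO (median −4.10) and −7.33 to −3.30 in Lean (median −3.54). The DIO-R samples were tightly grouped at the upper end of the range of both other groups. The difference of 1.00 ± 0.48 (interval 0.01 to 1.99; adjusted p = 0.512) rests on dim values in DIO, and with normexp background correction it was 0.21.

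Among the fibrillar genes, Col5a3 differed most, at −0.53 ± 0.28 (interval −1.11 to 0.04; adjusted p = 0.53), with 8 of 8 DIO-R samples below the DIO mean and DIO-R 6 far below the rest. Col3a1 differed by −0.34 ± 0.23 (interval −0.81 to 0.14), Col1a1 by −0.24 ± 0.24 (interval −0.73 to 0.25), Col1a2 by −0.20 ± 0.21 (interval −0.63 to 0.22), Col5a1 by −0.14 ± 0.21 and Col5a2 by −0.36 ± 0.20. Type VI chains differed by −0.20 ± 0.26 (Col6a1), −0.35 ± 0.28 (Col6a2) and −0.18 ± 0.26 (Col6a3). Without DIO-R 6 the differences were −0.31 for Col5a3, −0.21 for Col3a1, −0.12 for Col1a1, −0.05 for Col5a1, −0.07 for Col6a1, −0.15 for Col6a2 and −0.04 for Col6a3. The intervals over all samples allow both no difference and a decrease as large as the excess of DIO over Lean.

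The epithelial collagens had differences above 0. Col17a1 spanned 3.68 to 4.10 in DIO-R (median 3.94), 2.98 to 4.17 in DIO (median 3.70) and 3.54 to 4.06 in Lean (median 3.82), and DIO-R minus DIO was 0.21 ± 0.13 (interval −0.05 to 0.47). Col7a1 differed by 0.14 ± 0.13. DIO 6 was low in Col17a1 while it was the highest DIO sample in Col4a1, and 8 of 8 basal keratinocyte markers were higher in DIO-R (median 0.19, 0 past the threshold, 2 at an unadjusted p under 0.05), with Itgb4, a partner of type XVII in hemidesmosomes, at 0.22 ± 0.10 (adjusted p = 0.499). Their summed level ran from 524 to 706 in DIO-R, 340 to 675 in DIO and 444 to 640 in Lean. Differentiated keratinocyte markers were higher for 9 of 9 (median 0.34, 0 at either threshold). The part of the epithelium in these values was not tested.

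Col25a1, a membrane-spanning collagen made in neurons and developing muscle, was singled out after its values were seen, because its probes differed. The chosen probe gave 0.28 ± 0.17 for DIO-R minus DIO, and 2 others that were well above background on all 23 arrays gave 0.69 and 0.64. They correlated with the chosen probe at 0.22 and 0.10. Over all collagen genes, 17 further probes of 13 genes that passed the filter had the sign of the chosen probe in 13 of 17 for DIO minus Lean, 13 of 17 for DIO-R minus DIO and 12 of 17 for DIO-R minus Lean.

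The making and turnover of collagen gave no gene past the adjusted threshold in DIO-R against DIO. Biosynthesis genes were higher in DIO-R for 9 of 20 (median −0.02, 1 at an unadjusted p under 0.05), that 1 being Glt25d1, which attaches galactose to collagen, at 0.12 ± 0.05. Serpinh1 differed by −0.25 ± 0.12 (adjusted p = 0.517). Processing genes were lower for 8 of 12 (median −0.08, 1 at an unadjusted p under 0.05), that 1 being the cross-linking enzyme Loxl4 at −0.26 ± 0.12 (adjusted p = 0.503). Breakdown genes were lower for 9 of 14 (median −0.07), none of them at an unadjusted p under 0.05.

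Receptors were split 4 and 4 of 8, with Itga11, an integrin chain that binds fibrillar collagen on fibroblasts, at −0.59 ± 0.26 (adjusted p = 0.499). In the TGF-beta pathway 11 of 17 genes were lower (median −0.08, 6 at an unadjusted p under 0.05, 4 of them higher). Smad2, which carries the signal to the nucleus, differed by 0.27 ± 0.08 (adjusted p = 0.432) and Ctgf by 0.27 ± 0.12.

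The third comparison, DIO-R with Lean, shares its samples with the other 2, so its values are not independent of them. Of 38 collagen genes, 29 were higher in DIO-R, against 44.5% of all genes, with a median difference of 0.19, against −0.02 over all genes. Once more 0 of 38 passed limma's adjusted threshold (0.128% of all genes), and 3 of 38 had an unadjusted p under 0.05 (8.94% of all genes). Over the 3 groups at once, 0 of 38 passed limma's F test with adjustment, which 0.131% of all genes passed, and the smallest adjusted F-test p was that of Col3a1, 0.417.

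Fibrillar genes were higher in DIO-R than in Lean for 9 of 11 (median 0.25) and the other types for 18 of 22 (median 0.21), while type IV genes were higher for 2 of 5 (median −0.15). Within the slides the fibrillar median was 0.02, 0.53 and 0.15 and the median of all collagen genes −0.02, 0.45 and 0.06. Without DIO-R 6, DIO 3, Lean 9 and Lean 10 the fibrillar median was 0.12 with 7 of 11 fibrillar genes and 26 of all 38 collagen genes higher, and without Lean 9 alone it was 0.10. The unadjusted count was 7 without DIO-R 6, 6 without Lean 3 and 5 without DIO 3, DIO-R 10 or Lean 5, and the matching share of all genes was not counted.

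Col15a1 had the smallest p of this comparison. It spanned −3.23 to −1.48 in DIO-R (median −2.91), −3.41 to −2.50 in DIO (median −2.89) and −4.04 to −2.24 in Lean (median −3.42). All 8 DIO-R samples lay above the Lean mean, but Lean 3 was higher than 7 of them. DIO-R minus Lean was 0.68 ± 0.24 (interval 0.19 to 1.18; adjusted p = 0.362), with 0.60, 0.69 and 0.53 within the slides, and 2 further probes gave 0.46 and 0.35. With normexp background correction the difference was 0.27, so its size depended on how background was handled.

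Col14a1 was likewise above the Lean mean in 8 of 8 DIO-R samples, at 0.56 ± 0.24 (interval 0.07 to 1.06; adjusted p = 0.489), though its second probe gave 0.13. Col4a1 was below the Lean mean in 7 of 8, at −0.48 ± 0.23 (interval −0.96 to −0.01; adjusted p = 0.549), and −0.77, −0.44 and −0.31 within the slides. Col8a1 differed by 0.22 ± 0.11 (adjusted p = 0.572) and Col7a1 by 0.28 ± 0.14 (adjusted p = 0.581). Col3a1 differed by 0.39 ± 0.23 (interval −0.10 to 0.88), Col1a1 by 0.25 ± 0.25 (interval −0.26 to 0.76), and Col5a1 by 0.35 ± 0.22 (interval −0.10 to 0.81).

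Markers of other cells were read for DIO-R and Lean too. Skeletal muscle markers were lower in DIO-R for 9 of 10 (median −0.61, 2 at an unadjusted p under 0.05), beside a Col22a1 difference of −0.64 ± 0.35 that was 0.23 on slide 3. Adipocyte markers were lower for 7 of 8 (median −0.69, 4 at an unadjusted p under 0.05; sums 4.68 to 19.2 in DIO-R, 13.8 to 29.8 in DIO and 9.02 to 38.6 in Lean). Lingual gland markers were lower for 9 of 9 kept (median −0.97; sums 725 to 1960 in DIO-R, 628 to 2260 in DIO and 1300 to 2490 in Lean). Fibroblast markers were higher for 9 of 16 (median 0.06), with Lum at 0.78 ± 0.23 (adjusted p = 0.237). In these 4 lists 0 genes passed the adjusted threshold, and their part in the collagen values was not tested.

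Of the collagen machinery, Serpinh1 differed between DIO-R and Lean by 0.36 ± 0.13 (adjusted p = 0.378), Ctsk by 0.61 ± 0.22 (adjusted p = 0.393), Mmp3 by 0.60 ± 0.27 (adjusted p = 0.517) and Loxl4 by −0.31 ± 0.13 (adjusted p = 0.453). Hspg2, the basement membrane proteoglycan perlecan, differed by 0.28 ± 0.12 (adjusted p = 0.468), and Smad2 by 0.25 ± 0.09 (adjusted p = 0.375). By list, 13 of 20 biosynthesis genes (3 at an unadjusted p under 0.05), 6 of 12 processing genes (1), 9 of 14 breakdown genes (2), 6 of 8 receptors (0), 9 of 16 basement membrane partners (2) and 10 of 17 TGF-beta pathway genes (2) were higher in DIO-R, and 0 genes of these lists passed the adjusted threshold.

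The cartilage-type genes had little signal. Col2a1 lay at −4.23 to −2.99 in DIO-R (median −3.86), −5.72 to −3.36 in DIO (median −3.81) and −4.62 to −3.94 in Lean (median −4.27), and its DIO-R minus Lean difference was 0.48 ± 0.28 (interval −0.10 to 1.05). Col9a1 differed by −0.28 ± 0.16, while its second probe gave 0.32 and correlated with the first at −0.22, so that the direction depended on the probe. Of 9 cartilage markers, Matn1, Matn3, Cnmd and Snorc were not kept, and the 5 that were gave medians of −0.11 for DIO-R minus DIO, −0.09 for DIO-R minus Lean and 0.03 for DIO minus Lean.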

How the data were processed

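Circumvallate papilla RNA of 23 samples was hybridised to 1-colour Agilent arrays from 25 ng of total RNA, per the labels' protocols. The deposited scanner files hold each spot's processed signal, an intensity that the scanner software had background-subtracted, per the file headers; Agilent Feature Extraction 10.10.1.1 and limma are named in the submitters' processing notes. The authors also deposited a table of log2 values, used as an alternative; how it was centred is not stated. Each array has 62976 spots, 3671 of them controls; 78 to 182 other spots per array carried an outlier flag and were left out. Probe positions are in mm9, per the files.

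Spots of a probe were averaged, log2 signals were taken minus each array's 75th percentile, and 1 probe per symbol was kept (the highest mean). Genes well above background on 7 arrays or more (28224) entered 1 limma fit (limma 3.58.1, R 4.3.3) with a mean per group. Tests were moderated and two-sided, with Benjamini-Hochberg adjustment over all genes and a threshold of 0.05. "Higher" and "lower" without a test describe signs. Pair correlations used scipy 1.17.1. Named were the 5 collagen genes with the smallest p per comparison, a fixed set of 20 main collagen genes, and from each list the gene with the smallest p per comparison and any past the threshold. Some list genes are not reported here. The members and lists were chosen with earlier results of these data known. The fit was tested on simulated data. Array intensities carry no counts, so the number of arrays limits the precision. Same-numbered samples of different groups deviated together at −0.37 to 0.33 (18 pairs, 4 over 0.1), so the numbers were not treated as pairs. The alternatives covered background, scaling, probe choice, dim-probe filter, slide, replicate block, array weights, variance model, the authors' table and leaving out each sample.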

Additional observations from a re-analysis of the deposited data

Results flagged for a closer look

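In 23 of 207 groups of values looked at (11.1%), 1 sample stood apart from the rest of its group by a gap that takes up most of the group's range. Chance flags about 1 in 20 groups, and these groups are not independent, since their values come from the same arrays. Among the collagen genes this was so for 12 of 72 groups (16.7%), and 9 of the 12 concern DIO-R 6 or DIO 3. On the log2 level scale, DIO-R 6 lay at 0.02 for Col4a2, −2.00 for Col5a2, −0.39 for Col5a3, −0.36 for Col6a2 and 0.58 for Col6a3, each below the other DIO-R samples, and at −0.49 for the mean deviation of the other collagen types. DIO 3 lay at 0.48 for Col4a1, 0.21 for Col4a2, 0.12 for Col6a2 and 0.54 for Col6a3, each below the other DIO samples.

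The remaining collagen values were Col15a1 at −1.48 in DIO-R 8 and at −2.24 in Lean 3, both above the rest of their group, and Col19a1 at −7.33 in Lean 5, below it. In the lists, DIO 3 was low for Tie1 (−1.76), Prrx1 (−0.31), Pcolce (3.76), Itga11 (−1.09) and Rgs5 (0.45), and DIO-R 6 for Mmp3 (−1.06). Single values also stood apart for Slc4a1 in DIO 5 (−4.03), Glt25d1 in Lean 7 (1.71) and Loxl4 in Lean 6 (−3.03), all low, and for Aif1 in DIO 10 (1.79), high. Fibrillar medians and collagen counts with and without DIO-R 6, DIO 3, Lean 9 and Lean 10 stand with each comparison.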

How the results depend on the processing

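No collagen gene passed the adjusted threshold under any alternative, the smallest adjusted p being 0.0968 for Col15a1 in DIO-R minus Lean without Lean 3 and, for Col3a1 in DIO minus Lean, 0.138 with array weights. Numbers of all genes called moved. In DIO minus Lean (1 gene) they were 2 with normexp background, 9 in the authors' table, 3 with slide as a block, 58 with array weights, 3 with a trended robust variance and 2 without DIO-R 6, DIO 3, Lean 9 and Lean 10, an alternative added after seeing the data. In DIO-R minus DIO (17 genes) they were 27 with quantile normalization, 26 in the authors' table and 37 with array weights. In DIO-R minus Lean (36 genes) they were 19 with median centring, 109 with array weights and 12 without the 4 arrays, and for any group (37 genes) 64 with quantile normalization, 20 with median centring, 58 in the authors' table, 115 with array weights and 15 without the 4 arrays. The cause was not tested.

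Medians moved for DIO-R minus Lean within slide 1 (−0.02 for all collagen genes, −0.07 for the other types) and slide 2 (0.55 for the other types), and for DIO-R minus DIO within slide 2 (0.01 for all, 0.06 for the other types). Counting Col7a1, Col15a1, Col17a1 and Col18a1 with type IV gave 0.04 for DIO-R minus DIO and 0.11 for DIO-R minus Lean. The number of collagen genes at an unadjusted p under 0.05 was 5 with slide as a block, 5 with array weights and 9 without the 4 arrays in DIO-R minus DIO (3), and 6 in the authors' table, 10 with array weights and 5 without the 4 arrays in DIO-R minus Lean (3). The share of all genes at that threshold was not counted under these alternatives. Of 1146 values of named collagen genes, 47 changed sign.

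Leaving out 1 sample at a time gave 1 to 37 genes called in DIO minus Lean (37 without DIO 6), 11 to 24 in DIO-R minus DIO (11 without DIO 1), 26 to 64 in DIO-R minus Lean and 25 to 58 for any group (64 and 58 without Lean 3), with 0 collagen genes throughout. Medians for all collagen, fibrillar, type IV and other genes ran from 0.19 to 0.37, 0.29 to 0.49, −0.02 (without Lean 9) to 0.17 and 0.19 to 0.31 in DIO minus Lean, from −0.24 to −0.05, −0.32 to −0.10, −0.14 to −0.04 and −0.19 to −0.01 in DIO-R minus DIO, and from 0.11 to 0.27, 0.10 to 0.36, −0.19 to −0.11 and 0.17 to 0.31 in DIO-R minus Lean.

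With the replicate number as a block (consensus correlation −0.029), 1, 17, 36 and 35 genes were called in DIO minus Lean, DIO-R minus DIO, DIO-R minus Lean and any group, 0 of them collagen genes, and the collagen medians were 0.25, −0.11 and 0.20. Signal limits Col6a5, Col13a1, Col19a1, Col28a1 and the fibrillar genes Col2a1 and Col24a1, none of which was well above background on every array.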
